A study of Homo sapiens with 18 samples.

Results

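RNAs recovered with a FLAG-tagged ADAR3 of wild-type sequence (ADAR3 WT) were compared with RNAs recovered by the same immunoprecipitation (IP) from cells that carried an empty vector. The genes described are those of the authors' deposited comparison of ADAR3 WT over control whose mean normalized count was at least 50, which were 13617 of 60666 genes listed and of 21121 genes tested. The mean covers every library in the authors' fit and can include IP signal, so the limit is not independent of what the IP recovered. Of the 13617 genes, 206 (1.51%) had a mean under 50 in the input table, of which 25 were called higher and 1 was called lower in the comparison described here. The tables identify genes by Ensembl ID, and the files do not pair these IDs with gene names, so RNA classes (mitochondrial, small noncoding, lncRNA, mRNA) were not assigned here. The genes with the largest differences are given by ID, and the rest by counts and ranges.

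The cells were U373-MG, an established human glioblastoma line. Control cells were retrovirally transduced with a vector that encodes only antibiotic resistance, while other cells received FLAG-tagged ADAR3 WT or an ADAR3 with a mutated R-domain (R-mutant). All cells were grown in G418 and crosslinked with ultraviolet light before lysis, libraries kept strand information and followed depletion of ribosomal RNA, per the labels' protocols. The main comparison concerns 4 groups (control input, control IP, ADAR3 WT input and ADAR3 WT IP) with 3 libraries each, and R-mutant input and IP, also with 3 libraries each, enter the R-mutant values set beside it. The labels do not say whether replicates were separate cultures, and the spread between libraries may be technical. Per-library values of the IP were not used here and the depth of each library is unknown. The deposited standard error is the measure of precision, and the terms of the fit it comes from are not stated. The level of the transgene and the cell line's markers were not checked, because both need gene names.

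ADAR enzymes bind double-stranded RNA through repeated binding domains and convert adenosine to inosine. ADAR3 is the member found mainly in brain, has no detected editing activity, and has in addition an arginine-rich domain (the R-domain) that can bind single-stranded RNA. An RNA is enriched in such an IP when its share of the precipitate exceeds its share of the input, and the empty vector gives the background recovered without the tagged protein.

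Expression of ADAR3 WT was accompanied by changed IP enrichment of 2794 of the 13617 genes (20.5%), 1149 of them higher and 1645 lower than in control. IP enrichment is the ratio of IP to input, and each fold change was read as that ratio with ADAR3 WT relative to that with the empty vector, a reading that no source states and that was inferred from the tables. Higher and lower here mean a Benjamini-Hochberg adjusted p under 0.05, from a normal test (two-sided) on the ratio of deposited log2 fold change to deposited standard error, adjusted over all 21121 tested genes. Over all tested genes the share called was 14.1%, with 5.99% higher and 8.14% lower, against 8.44% and 12.1% of the genes described here. The 7504 tested genes under that mean held 192 calls, or 2.56% of them. The gene just above the limit had a mean of 50.005 and a log2 fold change of 1.05 ± 0.74 (standard error), and the one just below it had a mean of 49.973 and 0.71 ± 0.53. Counts were normalized between libraries, so every difference is relative to the other RNAs, and RNAs that gain in the precipitate can lower the values of the others.

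Most differences were moderate. The median log2 fold change of the 1149 higher genes was 0.94 (1.92-fold), with a middle range from 0.75 to 1.24. The 1645 lower genes had a median of -1.01 (2.01-fold lower), with a middle range from -1.28 to -0.80. Over all 13617 genes the median was -0.04, with quartiles at -0.44 and 0.34. A difference of at least 2-fold was reached by 524 higher and 842 lower genes. Over all tested genes 641 (3.03%) were higher and 917 (4.34%) were lower by that much with a call. The whole 95% interval lay beyond 2-fold for 68 of the higher genes (5.92%) and for 191 of the lower genes (11.6%). The smallest called log2 fold changes were 0.49 and -0.47.

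**Figure D1:**
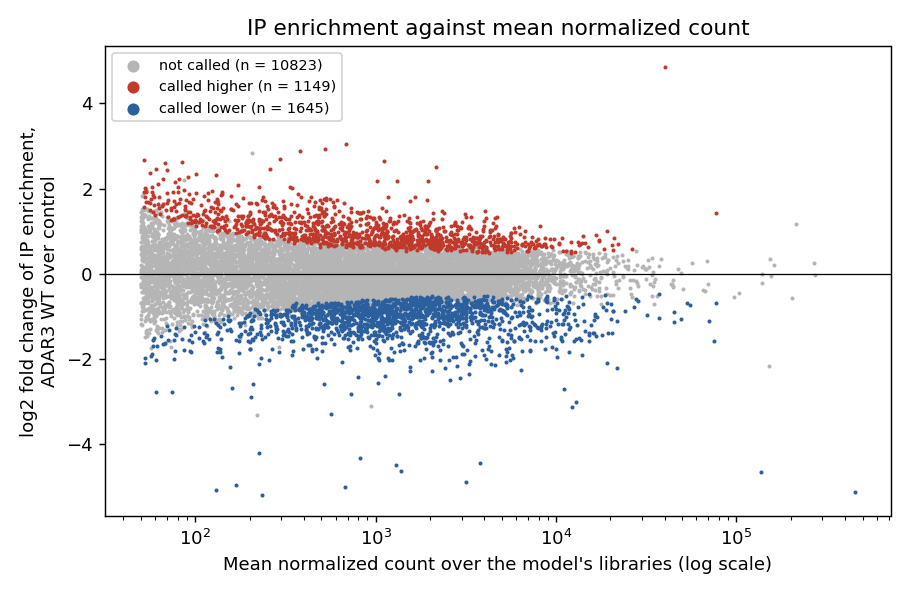
The log2 fold change of IP enrichment, ADAR3 WT over control, is plotted against the mean normalized count on a log axis for 13617 genes, each a point coloured by its call. The 1149 higher and 1645 lower genes flank the genes not called, 12 lower genes lie under -4, and 1 higher gene lies above 4.

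The lack of a call did not leave all remaining genes equally well bounded. Among the 10823 genes not called, 7148 (66.0%) had a 95% interval that lay wholly inside 2-fold. In the remaining 3675 (34.0%) a 2-fold difference lay within the interval. A fold change of at least 2-fold without a call was seen in 243 genes, whose median standard error was 0.54, against 0.27 over all 13617 genes.

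The tails of the distribution differed in shape. A group of 12 genes had log2 fold changes between -5.20 and -4.22, and the next called gene stood at -3.29. On the other side 1 gene stood at 4.85, and the next ones stood at 3.04 and 2.92. At 4-fold or more there were 58 lower and 31 higher genes. Over all tested genes 121 (0.573%) were lower and 135 (0.639%) were higher by that much with a call. At 8-fold or more there were 15 lower and 2 higher genes, against 51 (0.241%) and 66 (0.312%) of all tested genes. At 16-fold, a log2 value of 4, there were 12 lower and 1 higher gene, against 40 (0.189%) and 39 (0.185%). Most called genes at 8-fold or more, and nearly all of the higher ones, thus had a mean under 50. The excess of lower genes at these steps therefore holds for a mean of at least 50 and not for all tested genes. With a mean of at least 10, 27 called genes lay at or below -4 and 13 at or above 4.

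**Figure D2:**
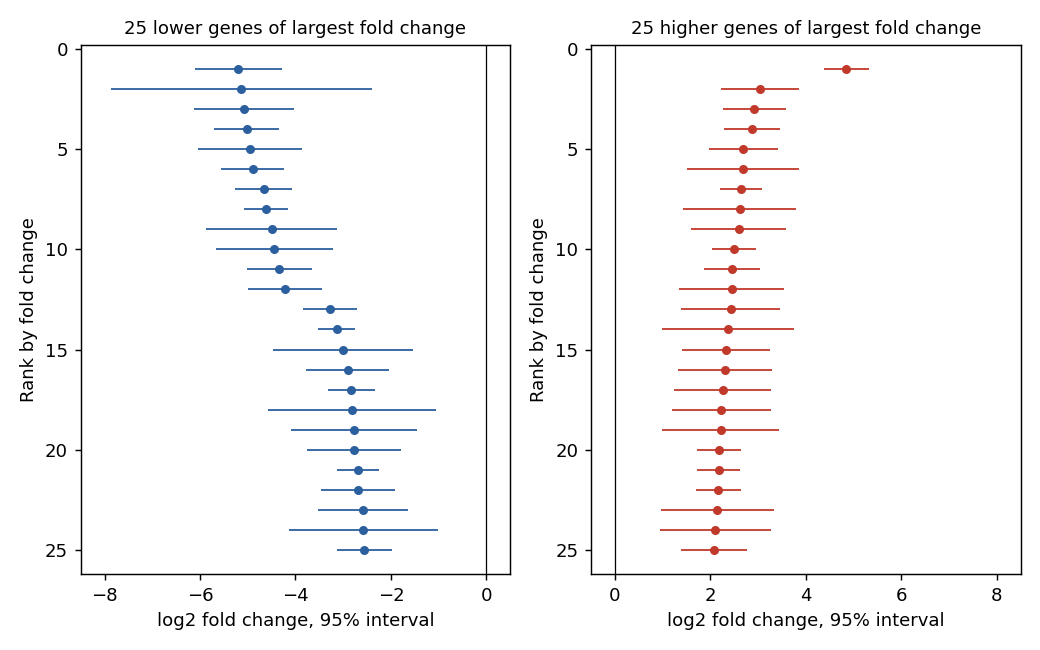
The 25 lower genes (left) and the 25 higher genes (right) of largest fold change are ranked by log2 fold change, each point with its 95% interval from the deposited standard error. A step separates the first 12 lower genes, at -4.22 or less, from the next at -3.29, and the highest gene at 4.85 stands apart from the next at 3.04.

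Among the 13617 genes of the authors' deposited table that met the limit on the mean, ENSG00000198695 had the largest rise in enrichment against control, at 4.85 ± 0.24 on the log2 scale (28.8-fold, 95% interval 4.38 to 5.32, normal test adjusted p 1.28e-86). Its mean normalized count was 39983, the rank of 37 among the 13617 genes, so this rise belonged to an abundant RNA. The authors' deposited table of input RNA gave it a log2 value of -0.13 ± 0.18, with an interval from -0.49 to 0.23. In the authors' deposited table ENSG00000210127 came second, with 3.04 ± 0.41 on the log2 scale (8.22-fold, normal test adjusted p 4.07e-11) on a mean of 681. Its input value there was 0.26 ± 0.23. Neither input value passed the test, and each interval excluded a 2-fold change of input.

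Among the same genes the largest fall in enrichment against control was that of ENSG00000226782, at -5.20 ± 0.46 in the authors' deposited table (95% interval -6.10 to -4.29, normal test adjusted p 3.89e-26). ENSG00000276168 followed at -5.13 ± 1.39 in the authors' deposited table (interval -7.86 to -2.41, normal test adjusted p 0.00333). These 2 genes differ in abundance and in precision. ENSG00000276168 had the highest mean of all, at 453191, which was 1.53% of the summed means of the 13617 genes, and its interval was wide. ENSG00000226782 had a mean of 235 and a narrower interval, and with an input mean of 21.5 it passed the limit of 50 only in the IP table. In input the authors' deposited table gave 0.39 ± 0.85 for ENSG00000276168 and -0.22 ± 0.55 for ENSG00000226782, both with intervals that include a 2-fold change.

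The 12 genes of lowest fold change covered a wide range of abundance. Their mean normalized counts ran from 131 to 453191, with a median of 1054, and their standard errors from 0.24 to 1.39. Their input log2 fold changes ran from -0.22 to 0.53, and 0 of 12 passed the normal test with Benjamini-Hochberg adjustment in input, 1 of them at an unadjusted p under 0.05, where 0.289% of all genes tested in input were called. In the comparison of the R-mutant with control, which uses the same control libraries, their log2 fold changes ran from -4.42 to -3.64. In R-mutant over ADAR3 WT they ran from 0.25 to 1.13, with a median of 0.83. None of these 12 passed the normal test with Benjamini-Hochberg adjustment there, where 0.00428% of all tested genes did. An unadjusted p under 0.05 was found in 5 of the 12, against 68 of the 13617 genes (0.499%). That last share is below the 0.05 that the threshold alone would give. The median standard error there was 0.22, while the quartiles of the fold changes were -0.10 and 0.06. The normal test was thus strict there, and a lack of calls does not show that R-mutant and ADAR3 WT were alike. The 12 genes were picked as the lowest in ADAR3 WT, and this comparison shares the ADAR3 WT libraries. Their common sign and their low unadjusted p-values in it are therefore fixed in part by the choice. The share over the 13617 genes, which were not picked in this way, is no fair baseline for the 5 of 12.

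The side-by-side values of the other called genes were as follows. Of the 13617 genes, 1025 were higher and 1615 were lower in the R-mutant than in control by the same test, which called 13.3% of all genes tested there. The 1149 genes higher with ADAR3 WT had a median of 0.94 against control. Their median for the R-mutant was 0.94 against control and -0.03 against ADAR3 WT. The 1645 lower genes had medians of -1.01, -1.07 and -0.07 in the same order. The 3 tables share libraries, so these are values of each table and not separate evidence.

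Few of these genes were called as different in input RNA. Of the 13614 genes also tested in input, 18 had more and 34 had less RNA with ADAR3 WT than with the empty vector, or 0.382%. Over all 20411 genes tested in input, 0.103% were higher and 0.186% were lower, or 0.289% in all. Among the 1149 genes with higher enrichment, 1 was higher and 4 were lower in input. Among the 1645 genes with lower enrichment, 2 were higher and 0 were lower in input by the normal test. An unadjusted p under 0.05 in either direction was found in 23 of them (1.40%), against 427 of the 13614 genes (3.14%). Both shares are below the 0.05 that the threshold alone would give. The median input log2 fold change was 0.06 for the genes of higher enrichment, 0.05 for those of lower enrichment and 0.04 for those not called. The input table shares its libraries with the IP table, where input stands in the denominator.

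The share of genes called lower grew with the mean. From a mean of 50 to 100, 5.75% of 1408 genes were higher and 2.34% were lower. From 100 to 1000, 9.29% of 5726 genes were higher and 10.8% were lower. From 1000 to 10000, 8.33% of 6100 genes were higher and 14.9% were lower. From 10000 to 50000, 7.56% of 357 were higher and 22.7% were lower. Of the 26 genes at 50000 or more, 1 was higher and 7 were lower. The share called higher did not grow in the same way. The median standard error was 0.51 in the first of these ranges and 0.30, 0.23, 0.21 and 0.22 in the following ones. Whether precision accounts for the growing share of lower genes was not tested. The genes with lower enrichment held 17.4% of the summed means, and those with higher enrichment held 7.44%.

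The 20 genes of highest mean held 10.4% of the summed means, and 1 of them was higher, 5 were lower and 14 were not called, where 5.99% of all tested genes were higher and 8.14% were lower. The precision of these genes fell into separate ranges. The standard error lay between 0.18 and 0.31 for 15 of them and between 0.70 and 1.39 for the other 5. These 5 held 4.36% of the summed means, and 1 of the 5, ENSG00000276168, was called. Over the 6100 genes with a mean from 1000 to 10000, 0.0984% had a standard error over 0.7. Which libraries differ in these genes was not examined.

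**Figure D3:**
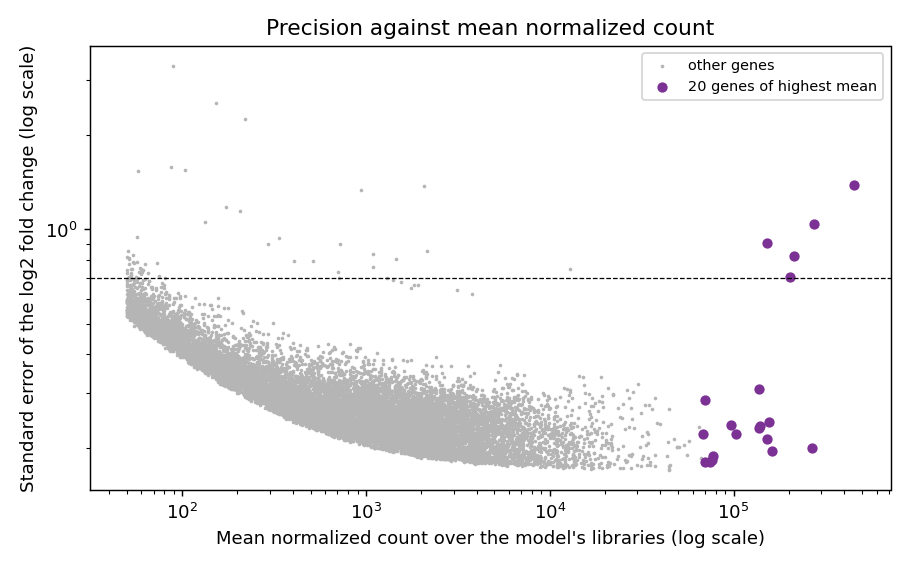
The standard error of the log2 fold change is plotted against the mean normalized count for 13617 genes, both on log axes, with the 20 genes of highest mean in purple and a dashed line at 0.7. The standard error falls with the mean, and 5 of the 20 genes lie above the line while 15 lie between 0.18 and 0.31.

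The mean of the IP model, read as taken over IP and input libraries, was set against the mean of the input table. The ratio of these means, as a log2 value relative to the median gene, had a median of 0.40 for genes of higher enrichment, -0.29 for genes of lower enrichment and 0.01 for genes not called. It was above 0 for 1121 of 1149 higher genes (97.6%) and for 119 of 1645 lower genes (7.23%). The ADAR3 WT IP libraries enter both this ratio and the fold change, so the ratio is a description, and both means were normalized separately by the authors.

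A small set of genes stood far out in this ratio. In 13 genes, 7 of them with an input mean under 50, the ratio was at least 4-fold above the median gene, and of these 0 were higher, 3 were lower and 10 were not called by the normal test with Benjamini-Hochberg adjustment. Among those with a fold change above 0, 1 had an unadjusted p under 0.05 and 5 passed the authors' adjusted p. The 3 lower genes had log2 fold changes of -5.20 (ENSG00000226782), -4.62 and -3.14, with standard errors of 0.46, 0.24 and 0.19. Relative to the median gene, these RNAs thus had a higher mean once IP libraries were counted in, and a lower enrichment with ADAR3 WT than with the empty vector. The others included 2 of the most abundant genes of the IP table, with means of 272453 and 213623 there and of 979 and 296 in the input table. Their log2 fold changes were -0.04 ± 1.04 and 1.17 ± 0.82, neither of which passed the normal test. Both genes passed the authors' adjusted p, from a test that covers more terms than this fold change.

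**Figure D4:**
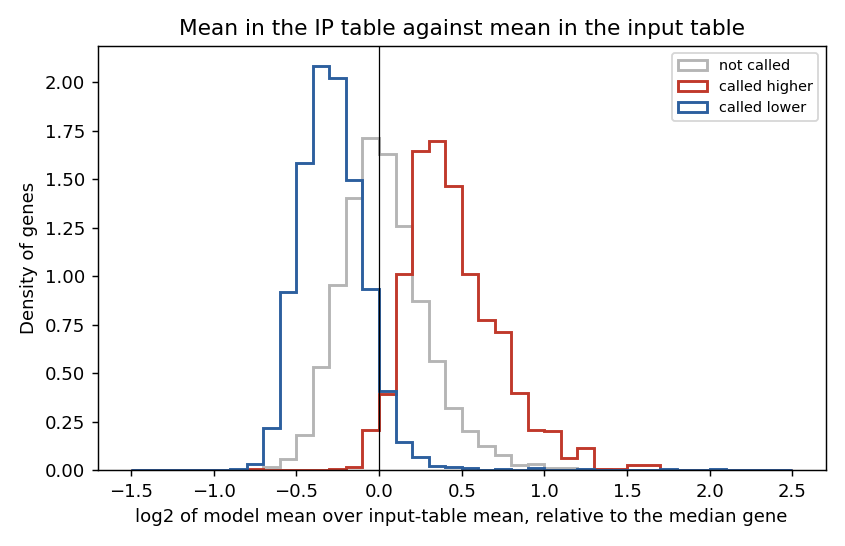
The distribution of the log2 ratio of the mean in the IP table to the mean in the input table, relative to the median gene, is drawn as a density for the genes called higher, called lower and not called, over ratios from -1.5 to 2.5. The higher genes centre at 0.40 and the lower genes at -0.29.

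The authors' own adjusted p-value gave more genes. It was passed at 0.05 by 8328 of the 13617 genes in the authors' deposited table, of which 3714 had a fold change above 0 and 4614 had one below 0. Over all tested genes 43.0% passed, with 19.3% above 0 and 23.7% below. The authors' deposited tables for the R-mutant had 7898 of these genes passing against control and 10321 against ADAR3 WT, where 40.8% and 51.1% of all tested genes passed. The deposited p-values equal those of chi-square with 7 degrees of freedom, so the test covers more terms than the fold change printed beside it, and more than 4 groups alone would give. In 1884 of the 8328 genes (22.6%) the fold change was smaller than its standard error. Of the 2794 genes called by the normal test, 2775 also passed the authors' test and 19 did not.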

How the data were processed

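RNA immunoprecipitation sequencing libraries of U373-MG cells were analysed from the authors' deposited result tables. STAR 2.7.7a, featureCounts and DESeq2 are named, with the build GRCh38, in the submitters' processing notes. The annotation, the formula and the libraries of each fit were not given in the sources used here. Per the file headers, each deposited table holds a mean signal (mean normalized count), a log2 fold change, its standard error, a test statistic (a score) and p-values with adjusted p-values. The fold change was read as IP over input in ADAR3 WT relative to control. This reading is not stated. It rests on the table's name and on a slope of -0.79 of this fold change on the input fold change in 3282 tested genes with an input mean under 10, the sign given by input in the denominator.

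The normal test of fold change over standard error was run over every gene with a deposited adjusted p (21121), with Benjamini-Hochberg adjustment and a threshold of 0.05. Called genes with a mean of at least 50 are described. The planned naming rule and gene lists could not be used without names, so the 2 genes of largest rise and the 2 of largest fall are named by ID. The genes and lists were chosen with earlier results of these data known. Of the input file, 6 columns of single libraries have names that no label matches, and they were not used. Software was Python 3.11.15 with pandas 2.3.3, scipy 1.17.1, statsmodels 0.14.6, numpy 2.4.6 and matplotlib 3.10.9. The authors' p-values were compared with chi-square values in 13594 genes at a relative tolerance of 0.01.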

Additional observations from a re-analysis of the deposited data

How the results depend on the processing

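No paired analysis was possible because the IP tables hold model output alone, and the 6 single-library columns of the input file carry codes and numbers that no label matches. Leaving out a replicate, other count models and other size factors were not run for the same reason, and the alternatives by RNA class, by gene list or centred on protein-coding genes were not run because IDs carry no names. At an adjusted p under 0.01 the counts were 691 higher and 1088 lower genes for ADAR3 WT. They were 34 in input and 1634 for the R-mutant against control. With at least a 2-fold change they were 524 higher, 842 lower and 1458 for the R-mutant against control. By the authors' adjusted p they were 3714 higher, 4614 lower, 7898 for the R-mutant against control and 10321 for the R-mutant against ADAR3 WT, where the normal test called 1. That single call became 2 with adjustment over genes with a mean of at least 50 alone and 0 at a mean of at least 200, where input had 30 calls against 52. At a mean of at least 10, 27 genes lay at or below a log2 fold change of -4 and 13 at or above 4, against 12 and 1. Every other count recomputed for these comparisons lay within 1.5 times the one reported. The 4 named IDs kept their call and direction in all 35 combinations of ID and setting that could be run. They were picked as the most extreme called genes, and every setting reuses the same deposited fold change and standard error. This outcome was therefore largely fixed by the choice and is no separate support. With an input mean of at least 50 as well, an alternative chosen after seeing the data, 1124 genes were higher and 1644 lower, and ENSG00000226782 was no longer in the set. Centring moved each fold change by the median of -0.04. Depth per library is unknown, and per-gene precision is known through the deposited standard error alone.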
